A study of Rattus norvegicus with 12 samples.

Results

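Expression in rat kidney was described for 8 genes that lie near Pkhd1 on chromosome 9: Tmem14a, Gsta1, Slc29a1, Adgrf1, Slc22a7, Mcm3, Paqr8 and Tram2. The genes were selected on position near Pkhd1 and on measured values, the log2 difference of the congenic strain from FHH. Every probe set carrying one of these symbols alone was taken, which gave 12 of 31042 non-control probe sets. Each of the 8 genes had 1 probe set at or above a detection level of 5.75 on the log2 scale, the 40th percentile of all values, and the other 4 probe sets (1 of Adgrf1 and 3 of Paqr8) lay below it in all groups. Since these values were known when the genes were chosen, that difference, and those that share its arrays, are given below for the 8 genes as a description and without a p-value.

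The 4 groups were kidneys of rats aged 30 days, all fed 5LOD diet. FHH.Pkhd1 is a congenic strain, FHH.PCK-(D9Rat35-D9Rat70)/Mcwi, that carries a segment of PCK chromosome 9 bounded by these 2 markers on the FHH background. PCK is a Sprague Dawley-derived strain with a spontaneous mutation of Pkhd1. FHH, the recipient, is an inbred hypertensive strain, and SD is outbred Sprague Dawley stock. Neither carries that mutation. Both kidneys of 6 animals per strain were used, the RNA of a strain was pooled, and the pool was hybridized to 3 Affymetrix arrays of a rat expression design. The 3 arrays of a group are thus technical replicates of 1 pool. Standard deviations (SD after a ± sign), standard errors (SE) and p-values measure the spread between arrays and hold nothing about the spread between animals.

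Pkhd1 encodes fibrocystin, a membrane protein of primary cilia of kidney tubules and bile ducts, and its mutation causes recessive polycystic kidney disease. A congenic strain is made by repeated backcrossing, so that genes linked to the selected locus come along with it in the donor's form. Neighbouring genes with unlike expression in the donor and recipient strains therefore have 2 levels that the congenic strain could show. The congenic pool was compared with both. The positions of the 2 markers were not used here, so it is not known which of the 8 genes lie inside the segment.

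In the gene order of the GRCr8 assembly, and counting only genes with a named probe set, Mcm3, Paqr8, Tram2, Tmem14a and Gsta1 followed Pkhd1 as the genes numbered 2, 3, 4, 6 and 8. On the other side, Adgrf1 was 11, Slc29a1 25 and Slc22a7 42 measured genes away. The arrays held 565 measured genes of chromosome 9. No probe set was named for Pkhd1 itself.

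Reference promoters are shown for the 5 of these genes whose PCK and FHH arrays did not overlap, so that every donor array stood apart from every recipient array. Each line gives the 250 bases before the annotated start in GRCr8, from RefSeq, 5′ to 3′ on the strand of the gene. Capitals mark the matches, on either strand, to 4 promoter motifs. The first was searched as TATAAA and is known as the TATA box. The second, bound by the factor NF-Y in many promoters, was searched as CCAAT and is called the NF-Y motif here. The third was searched as GGGCGG and is called the Sp1 motif. No match shown overlaps another. The antioxidant response element, through which the factor Nrf2 acts, was searched as TGACNNNGC.
Tmem14a (chr9:31136761-31137010, plus strand): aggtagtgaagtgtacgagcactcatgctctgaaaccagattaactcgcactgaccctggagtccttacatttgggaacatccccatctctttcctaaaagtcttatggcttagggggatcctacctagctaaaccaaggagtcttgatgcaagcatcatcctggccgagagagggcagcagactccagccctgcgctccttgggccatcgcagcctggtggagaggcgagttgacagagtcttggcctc
Gsta1 (chr9:31216533-31216782, minus strand): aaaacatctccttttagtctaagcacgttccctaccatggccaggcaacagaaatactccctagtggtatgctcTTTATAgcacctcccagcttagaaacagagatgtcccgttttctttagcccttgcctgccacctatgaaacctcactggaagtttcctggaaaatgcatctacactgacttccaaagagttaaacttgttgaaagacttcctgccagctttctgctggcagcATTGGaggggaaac
Slc29a1 (chr9:22896849-22897098, plus strand): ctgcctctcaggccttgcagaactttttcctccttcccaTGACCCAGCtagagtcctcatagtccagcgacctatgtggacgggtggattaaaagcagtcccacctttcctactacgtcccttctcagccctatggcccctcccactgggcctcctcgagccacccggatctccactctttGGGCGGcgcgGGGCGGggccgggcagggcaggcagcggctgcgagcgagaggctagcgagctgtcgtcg
Adgrf1 (chr9:25210745-25210994, minus strand): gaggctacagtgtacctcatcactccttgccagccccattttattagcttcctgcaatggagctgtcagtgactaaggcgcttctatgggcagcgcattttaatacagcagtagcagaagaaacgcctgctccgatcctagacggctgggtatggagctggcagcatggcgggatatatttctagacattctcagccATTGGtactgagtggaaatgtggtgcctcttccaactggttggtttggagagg
Slc22a7 (chr9:22045248-22045497, plus strand): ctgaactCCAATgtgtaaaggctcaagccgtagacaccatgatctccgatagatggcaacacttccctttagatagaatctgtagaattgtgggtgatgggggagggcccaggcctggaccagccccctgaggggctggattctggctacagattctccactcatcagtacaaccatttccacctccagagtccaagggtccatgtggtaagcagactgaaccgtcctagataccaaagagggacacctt
These letters are those of the reference rat and not of FHH, PCK or SD. Of the 8 genes, 7 had an entry, and the first of 3 listed starts is shown for Adgrf1. Gsta1 had 1 NF-Y motif and 1 match to the TATA box letters, which lay 176 bases before the start on the opposite strand. Slc29a1 had 2 Sp1 motifs and 1 antioxidant response element. Slc22a7 and the shown start of Adgrf1 each had 1 NF-Y motif. Starts 2 and 3 of Adgrf1 had no NF-Y motif, but each had 1 Sp1 motif and 1 antioxidant response element. In the 250 bases of Tmem14a none of the 4 motifs was matched. Matches on either strand were also counted in all 33469 promoters of that length. Of these, 12.9% matched the TATA box, 34.0% the NF-Y motif, 30.5% the Sp1 motif and 10.1% the antioxidant response element.

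The congenic pool took no single side over these genes. They were chosen on FHH.Pkhd1 minus FHH, a difference that also sets where the congenic pool lies. Genes that kept the FHH level were thus less likely to be chosen, and the split describes these genes alone. Among the 5 whose PCK and FHH arrays did not overlap, 2 lay nearer to the PCK level (Tmem14a and Slc29a1), 1 lay midway (Gsta1), and 2 lay on the far side of FHH from PCK (Adgrf1 and Slc22a7). The other 3 genes (Mcm3, Paqr8 and Tram2) had PCK and FHH arrays that overlapped, so they were not placed on a side here. Their means could still differ, with PCK minus FHH at 0.37 ± 0.09 (SE) for Tram2.

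**Figure D1:**
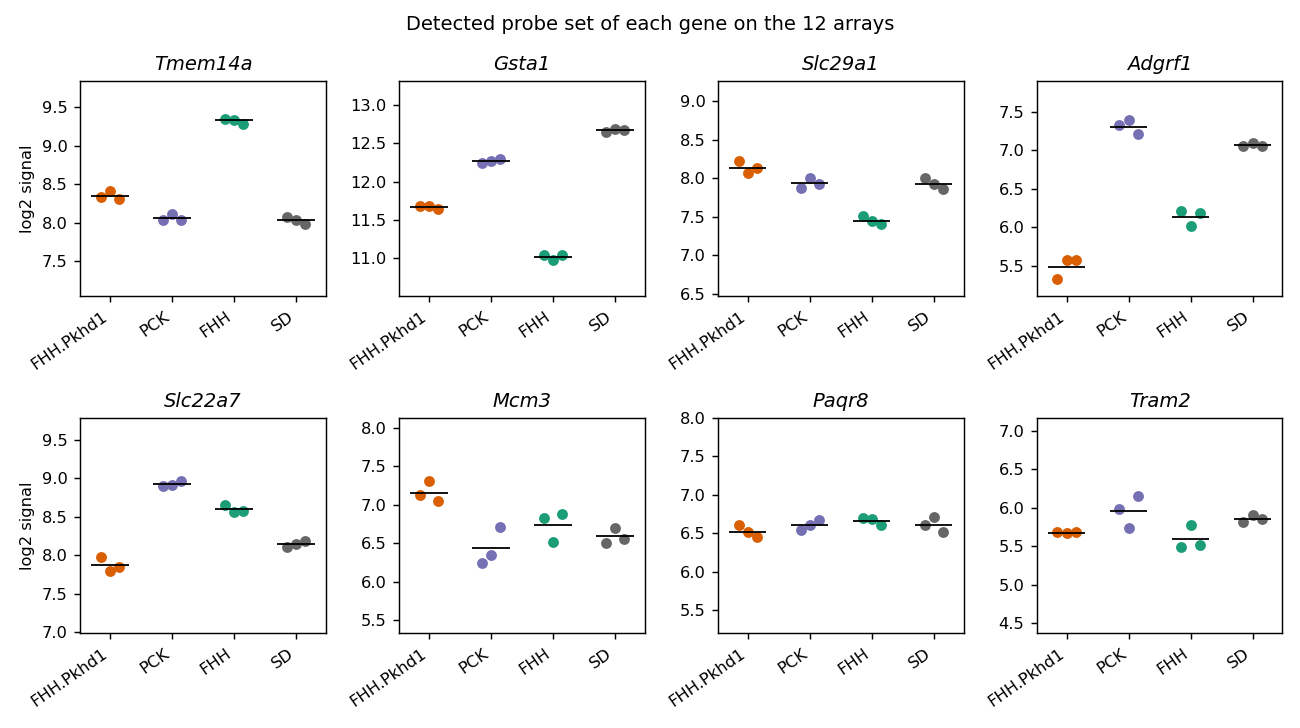
Log2 signal of the detected probe set of each of the 8 genes on the 3 arrays of FHH.Pkhd1, PCK, FHH and SD (points), with the pool mean as a line. Every panel spans the same log2 range around its own centre. Tmem14a in FHH.Pkhd1 (8.35) lies near PCK (8.06) and away from FHH (9.33), while Adgrf1 in FHH.Pkhd1 (5.49) lies below both PCK (7.31) and FHH (6.14).

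Tmem14a encodes a small membrane protein that in human cells has been linked to protection from apoptosis. Its log2 signal was 8.33, 8.41 and 8.31 on the FHH.Pkhd1 arrays, 8.03, 8.12 and 8.04 on the PCK arrays, 9.35, 9.34 and 9.29 on the FHH arrays, and 8.08, 8.03 and 7.98 on the SD arrays. FHH stood alone as the high pool, and the congenic arrays lay below all FHH arrays and above all PCK and SD arrays. The difference was -0.98 ± 0.04 (SE) for FHH.Pkhd1 minus FHH and -1.26 ± 0.04 for PCK minus FHH, which is a 2.4-fold lower signal in PCK. The congenic pool remained 0.29 ± 0.04 above PCK. On a scale where 0 is the FHH mean and 1 the PCK mean, its position was 0.77 ± 0.03 (SE). PCK and SD had overlapping arrays and differed by 0.03 ± 0.04 (limma adjusted p = 0.609), so the low level was that of SD as well.

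Slc29a1 encodes ENT1, an equilibrative transporter of adenosine and other nucleosides. It gave 8.22, 8.07 and 8.13 in FHH.Pkhd1, 7.88, 8.01 and 7.92 in PCK, 7.51, 7.44 and 7.41 in FHH, and 8.0, 7.92 and 7.86 in SD. Here FHH was the low pool, with no array reaching those of the other 3 strains. FHH.Pkhd1 exceeded FHH by 0.69 ± 0.05 and PCK by 0.20 ± 0.05 (SE), and PCK exceeded FHH by 0.49 ± 0.05. The congenic pool was thus on the PCK side and past it, and its arrays did not overlap those of PCK. Taken without a fold limit, its position was 1.41 ± 0.14 (SE). PCK minus SD was 0.01 ± 0.05 (limma adjusted p = 0.895). Since PCK and FHH differed 1.4-fold, under the 1.5-fold limit used for a call, the position scale was not applied in the count of calls below.

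Gsta1 encodes an alpha class glutathione transferase, which conjugates glutathione to electrophiles and is abundant in the proximal tubule. The arrays read 11.68, 11.68 and 11.65 in FHH.Pkhd1, 12.24, 12.27 and 12.30 in PCK, 11.05, 10.98 and 11.04 in FHH, and 12.64, 12.69 and 12.67 in SD. All 4 pools were apart, in the order SD, PCK, FHH.Pkhd1 and FHH from high to low. FHH.Pkhd1 lay 0.65 ± 0.04 above FHH and 0.60 ± 0.04 below PCK (SE), and it was 0.02 ± 0.03 from the midpoint of the 2. Its position was 0.52 ± 0.03. PCK was 2.38-fold above FHH and 1.32-fold below SD (PCK minus SD -0.40 ± 0.04, limma adjusted p = 5.6e-06). Alpha class transferases are similar in sequence, so their probe sets may share RNA, and the Gsta1 level is uncertain to that extent.

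Adgrf1 encodes an adhesion G protein-coupled receptor that responds to a docosahexaenoic acid derivative. Its detected probe set read 5.33, 5.57 and 5.58 in FHH.Pkhd1, 7.33, 7.39 and 7.21 in PCK, 6.21, 6.02 and 6.19 in FHH, and 7.06, 7.10 and 7.06 in SD. The congenic arrays were the lowest of all and lay under the detection level of 5.75, while PCK was the highest pool. FHH.Pkhd1 minus FHH was -0.65 ± 0.07 and FHH.Pkhd1 minus PCK was -1.81 ± 0.07 (SE), where PCK minus FHH was 1.17 ± 0.07. With the congenic signal set at the detection level, FHH.Pkhd1 was at least 1.32-fold lower than FHH and at least 2.95-fold lower than PCK. The position was -0.56 ± 0.09 (SE) from the signals as measured and at most -0.34 from that bound. The 1.5-fold difference between FHH.Pkhd1 and FHH rested on FHH.Pkhd1 replicate 1, without which it was -0.57. PCK exceeded SD by 0.23 ± 0.07 (limma adjusted p = 0.0299). The second probe set of Adgrf1 averaged 4.17 in FHH.Pkhd1, 4.29 in PCK, 4.05 in FHH and 3.99 in SD, below detection in each, with congenic arrays that overlapped those of PCK and FHH.

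Slc22a7 encodes OAT2, an organic anion transporter of tubule and liver cells. It read 7.98, 7.79 and 7.85 in FHH.Pkhd1, 8.90, 8.91 and 8.97 in PCK, 8.65, 8.56 and 8.57 in FHH, and 8.11, 8.14 and 8.18 in SD. Again the 4 pools did not overlap, but here FHH.Pkhd1 was lowest and SD, not FHH, was next to it. The congenic pool was 0.72 ± 0.05 (SE) below FHH and 1.06 ± 0.05 below PCK, the donor of the segment. PCK was 0.33 ± 0.05 above FHH. PCK was 1.72-fold above SD (0.78 ± 0.05). This difference was already known from earlier results of these arrays, so no p-value is given for it.

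Mcm3 encodes a subunit of the MCM helicase that licenses and unwinds DNA replication origins. It read 7.13, 7.31 and 7.05 in FHH.Pkhd1, 6.24, 6.35 and 6.71 in PCK, 6.83, 6.52 and 6.88 in FHH, and 6.50, 6.70 and 6.56 in SD. The congenic arrays lay above all others, and those of the other 3 pools overlapped. FHH.Pkhd1 minus FHH was 0.42 ± 0.12 and FHH.Pkhd1 minus PCK was 0.73 ± 0.12 (SE), a 1.66-fold higher signal than in PCK. PCK minus SD was -0.15 ± 0.12 (limma adjusted p = 0.382).

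Paqr8 encodes a membrane progesterone receptor, and Tram2 a protein of the endoplasmic reticulum translocon linked to collagen synthesis. The detected probe set of Paqr8 averaged 6.52 ± 0.08 in FHH.Pkhd1, 6.61 ± 0.06 in PCK, 6.66 ± 0.04 in FHH and 6.61 ± 0.10 in SD (SD, n = 3 arrays of 1 pool), a range of 0.13 over the 4 pools. The 3 probe sets of Paqr8 below detection spanned 0.19 to 0.21. Tram2 read 5.69, 5.68 and 5.69 in FHH.Pkhd1, 5.99, 5.74 and 6.15 in PCK, 5.49, 5.78 and 5.52 in FHH, and 5.82, 5.91 and 5.85 in SD. The congenic pool stayed 0.09 ± 0.09 from FHH and 0.28 ± 0.09 below PCK (SE), but the PCK and FHH arrays of Tram2 overlapped. PCK minus FHH was 0.37 ± 0.09. The congenic mean was 0.09 ± 0.08 from the midpoint of the 2, on the FHH side. Tram2 was detected through PCK and SD alone.

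**Figure D2:**
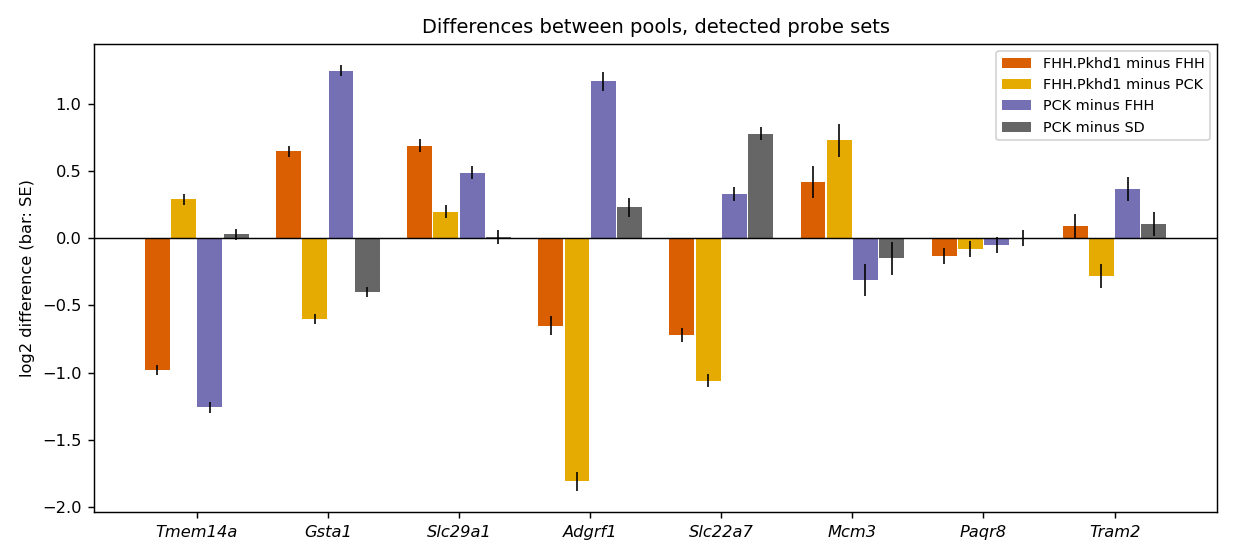
Log2 differences of the detected probe sets for FHH.Pkhd1 minus FHH, FHH.Pkhd1 minus PCK, PCK minus FHH and PCK minus SD, with SE from the limma fit. Tmem14a and Slc29a1 show a large first bar and a small second one, and Adgrf1 and Slc22a7 show first and second bars that both point down.

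Calls across all arrays put these sizes in context. A probe set was called at a limma adjusted p under 0.05 and a difference of at least 1.5-fold, among 19359 tested. In FHH.Pkhd1 minus FHH, the contrast behind the choice of genes, 5 of 8 were called (2 higher and 3 lower) against 1.9% of all probe sets (0.899% higher and 1.0% lower), and the arrays of 7 of 8 did not overlap against 37.4%. Nothing is read from these counts. In PCK minus FHH, 3 of 8 were called, Gsta1 and Adgrf1 higher and Tmem14a lower, against 4.57% of all probe sets (2.08% higher and 2.49% lower). In FHH.Pkhd1 minus PCK, 4 were called, Mcm3 higher and Gsta1, Adgrf1 and Slc22a7 lower, against 6.91% of all (3.79% higher and 3.11% lower), and the arrays of 7 of 8 did not overlap against 59.1%. These 3 comparisons share arrays with each other, so nothing is read from the counts of any of them. In PCK minus SD, which shares no array with FHH.Pkhd1 minus FHH, Slc22a7 alone was called, and was higher. Of all probe sets 3.49% were called (1.79% higher and 1.7% lower). Since that difference of Slc22a7 was already known, nothing is read from its call. The PCK and SD arrays of 3 of 8 did not overlap against 45.1%. In SD minus FHH, 3 were called, Gsta1 and Adgrf1 higher and Tmem14a lower, against 3.72% of all (1.81% higher and 1.92% lower). The SD and FHH arrays of 6 of 8 did not overlap against 48.3%. SD minus FHH shares its FHH arrays with the contrast behind the choice of genes, so nothing is read from its counts either. The fold limit decided nearly all calls: of the probe sets past 1.5-fold in these 5 comparisons, the adjusted p removed 1, in FHH.Pkhd1 minus PCK. The median size of the log2 difference was 0.65 for the 8 genes and 0.09 for all probe sets in FHH.Pkhd1 minus FHH, and 0.13 and 0.10 in PCK minus SD. In PCK minus FHH the arrays of 5 of 8 genes did not overlap, against 50% of all probe sets.

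To see how often a congenic signal left the FHH level at all, the position was computed for all 885 probe sets called in PCK minus FHH. Its median was 0.00, with quartiles of -0.21 and 0.16. Of these probe sets 61.5% were within 0.25 of the FHH level, 1.81% were within 0.25 of the PCK level, and 7.23% lay nearer to PCK than to FHH. The positions of Tmem14a, Gsta1 and Adgrf1 are not ranked against these, since the genes were chosen on the difference that forms the numerator. The numerator and the denominator of the position share the FHH arrays.

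**Figure D3:**
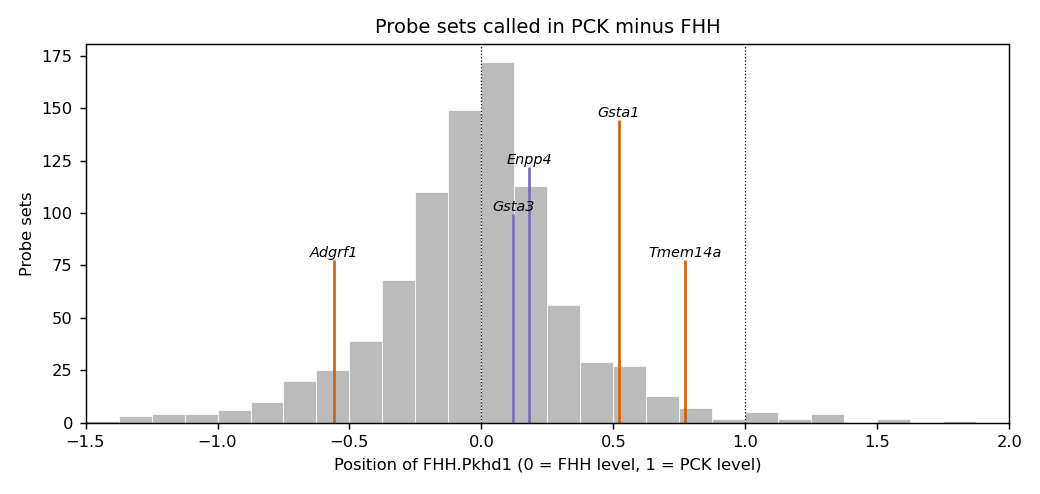
Number of probe sets by position of FHH.Pkhd1 between FHH (0) and PCK (1), for the 885 probe sets called in PCK minus FHH; 13 fall outside the plotted range. Vertical lines mark the 5 called probe sets among the 25 measured genes on each side of Pkhd1 (orange, the genes described above; purple, their neighbours), with Gsta3 (0.12) at the FHH level between Gsta1 (0.52) and Adgrf1 (-0.56), and Tmem14a (0.77) farthest towards PCK.

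The genes next to these 8 were taken by gene order alone, 25 measured genes on each side of Pkhd1, a window that holds 7 of the 8 genes and leaves out Slc22a7. Of its 74 probe sets 50 were detected, from 35 genes. In PCK minus FHH 5 were called, the 3 genes above, Gsta3 and Enpp4. Gsta3 encodes another alpha class glutathione transferase and lies between Tmem14a and Gsta1 among the measured genes. It averaged 9.82 ± 0.01 in FHH.Pkhd1, 8.66 ± 0.14 in PCK, 9.97 ± 0.03 in FHH and 8.99 ± 0.02 in SD (SD, n = 3 arrays of 1 pool). PCK was lower than FHH by -1.31 ± 0.06 (SE, limma adjusted p = 7.38e-09), and FHH.Pkhd1 stayed at the FHH level, at a position of 0.12 ± 0.04. The consecutive measured genes Tmem14a, Gsta3 and Gsta1 thus stood at 0.77, 0.12 and 0.52. Enpp4, of the ectonucleotide pyrophosphatase family, was higher in PCK than in FHH (0.72 ± 0.06, limma adjusted p = 3.88e-06) and also stayed near FHH in the congenic pool (position 0.18 ± 0.08). In FHH.Pkhd1 minus FHH, 4 of the 50 (8.0%) were called, all among the 8 genes, against 1.9% of all probe sets. The median size of difference was 0.10 against 0.09 for all probe sets. None of the other 43 was called by limma, while 15 had an unadjusted p under 0.05 and 8 an adjusted one. Since the 8 genes were chosen on that same difference, nothing is read from the 0. Gsta3l1 and Col9a1 were among the probe sets of the window under the detection level, which were not tested. Gsta3l1 averaged 5.71 ± 0.28 in FHH.Pkhd1, 4.86 ± 0.08 in PCK, 5.02 ± 0.06 in FHH and 4.74 ± 0.08 in SD. Col9a1 averaged 4.68 ± 0.02 in FHH.Pkhd1, 5.0 ± 0.17 in PCK, 5.65 ± 0.01 in FHH and 5.72 ± 0.11 in SD (SD, n = 3 arrays of 1 pool). Both were singled out after their values were seen.

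Smaller differences between PCK and FHH were more mixed. With an adjusted p under 0.05 and no fold limit, 22 probe sets of the window differed between PCK and FHH, and 11 of them (50%) had a congenic signal nearer to PCK. Leaving out the described genes, it was 8 of 17, or 47.1% (7 of 14 before Pkhd1 and 1 of 3 after it), beside 19.1% of all 7725 such probe sets and 19.6% of the 214 on chromosome 9 farther from Pkhd1. The 8 probe sets came from 7 genes, Rcan2 holding a pair, and in 2 of them, of Tnfrsf21 and Mep1a, the position was over 2 SE past the midpoint. None of the others could be told from the midpoint by that measure. They were Aars2 (0.93 ± 0.26), Rcan2 (0.97 ± 0.29 and 0.83 ± 0.32), Adgrf5 (0.65 ± 0.18), Mmut (0.52 ± 0.24) and Kcnq5 (0.55 ± 0.30). Another probe set of Adgrf5 gave -0.03 ± 0.27. Tnfrsf21, 1 of the 2 genes past the midpoint, encodes a death receptor of the tumour necrosis factor family. Its difference was -0.37 ± 0.04 for FHH.Pkhd1 minus FHH and -0.40 ± 0.04 for PCK minus FHH (SE), a position of 0.91 ± 0.09. The second probe set of Tnfrsf21 gave 0.31 ± 0.10. These genes were singled out after their values were seen.

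**Figure D4:**
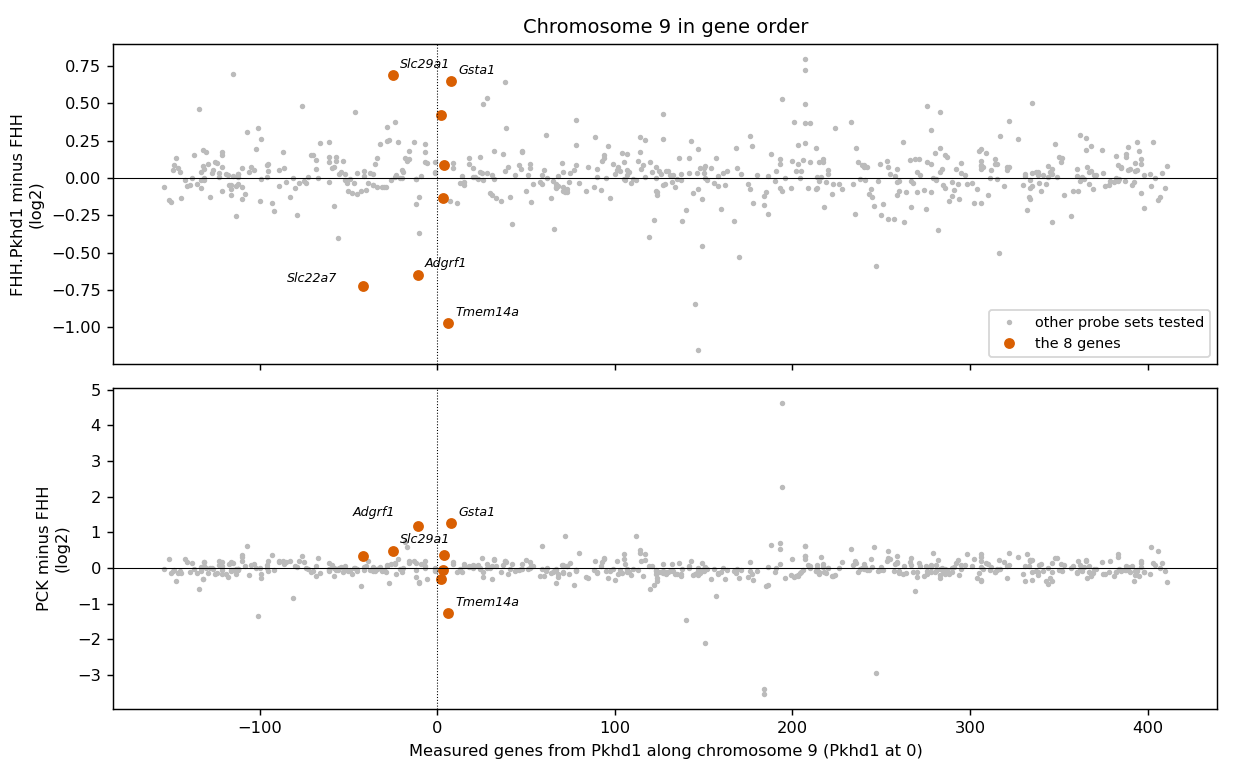
Log2 differences of all detected probe sets of chromosome 9 in gene order, with Pkhd1 at 0 and the 8 genes in orange; above FHH.Pkhd1 minus FHH, below PCK minus FHH, on separate scales. Tmem14a (-0.98) and Slc22a7 (-0.72) are among the most negative points of the upper plot, and larger differences between PCK and FHH occur farther along the chromosome.

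Along the whole of chromosome 9, 26 probe sets were called in PCK minus FHH, and in 4 of them the congenic pool lay nearer to PCK. Those were Tmem14a, Gsta1 and both called probe sets of Igfbp5, 207 measured genes beyond Pkhd1, at positions of 1.20 ± 0.24 and 1.32 ± 0.29 (SE). With the 8 genes left out, since they were chosen on the difference in the numerator, it was 2 of 23 (8.7%), both of the 1 gene Igfbp5, against 33 of the 544 (6.07%) placed on other chromosomes. This difference was not tested. Among the other chromosomes taken singly, the share nearer to PCK ranged from 0 of 75 on chromosome 1 to 6 of 17 on chromosome 15. Chromosome 9 lay within that range, with or without the 8 genes, so no excess on it is read from these counts.

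Relatives of the 8 genes elsewhere in the genome were compared with them by lists written with earlier results known. All 5 MCM partners (Mcm2, Mcm4, Mcm5, Mcm6 and Mcm7), which lie on 5 other chromosomes, had pool means in the same order as those of Mcm3, FHH.Pkhd1 being highest, then FHH, SD and PCK. The pool means of 13% of all probe sets tested stood in that order. It is an order of means, since the FHH, SD and PCK arrays of Mcm3 overlapped, and PCK and SD were not separated in any of the 5 partners (limma adjusted p = 0.0574 to 0.619). In FHH.Pkhd1 minus PCK, 4 of the 5 were called higher, with Mcm6 at 1.19 ± 0.09 (SE, limma adjusted p = 5.03e-07), Mcm4 at 0.83 ± 0.06 and Mcm2 at 0.78 ± 0.05, beside 0.73 for Mcm3. In FHH.Pkhd1 minus FHH none of the 5 was called by limma, though all 5 had an adjusted p under 0.05 and an unadjusted p under 0.05, and their median was 0.29. Of 6 proliferation markers, Mki67 was called higher in FHH.Pkhd1 than in PCK (0.64), and the list's median difference was 0.50. Their summed linear signal was 4031 to 4096 in FHH.Pkhd1, 2786 to 3023 in PCK, 3329 to 3631 in FHH and 3520 to 3651 in SD, and their part in the Mcm3 difference was not tested. In bulk RNA, fewer cells of a type and less RNA per cell cannot be told apart.

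Of the 5 measured renal relatives of Slc22a7, Slc22a2, an organic cation transporter, was called lower in FHH.Pkhd1 than in FHH (-0.84 ± 0.06, SE, limma adjusted p = 1.51e-06) and than in PCK (-1.38 ± 0.06), the same directions as Slc22a7. Slc22a13 was called higher than in PCK (0.65 ± 0.11), and Slc22a12, at -0.45 ± 0.09 against PCK (limma adjusted p = 0.0011), was not called. The other 2 were called in neither. In PCK minus SD and SD minus FHH, Slc22a2 went against Slc22a7 (-0.21 ± 0.06 and 0.76 ± 0.06, beside 0.78 and -0.45). Slc22a13 went with Slc22a7 in both (0.71 ± 0.11 and -0.86 ± 0.11). Slc22a13 was called in both and Slc22a2 in SD minus FHH, and no other of the 5 was called there. Proximal tubule markers had a median of 0.03 in FHH.Pkhd1 minus FHH with none of 10 called by limma (5 had an unadjusted p under 0.05), and a summed linear signal of 55003 to 57260 in FHH.Pkhd1, 51989 to 52871 in PCK, 53922 to 54611 in FHH and 54078 to 55073 in SD. For Gsta1, the relative Gsta4 on chromosome 8 differed by 0.29 ± 0.04 in PCK minus FHH and was not called. Among the other relatives, 12 were tested, namely 2 nucleoside transporters, Adgrf5, 7 receptors of the Paqr8 family, Tmem14c and Tram1. None was called by limma in any of the 5 comparisons, though 34 of their 60 tests had an unadjusted p under 0.05.

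Genes with the most similar pool pattern were found by the Euclidean distance between pool means over 4 pools, each centred on its own mean. Nearest to Tmem14a was Rtp4 (distance 0.44), nearest to Gsta1 was Nos3 (0.20), nearest to Slc29a1 was Chd4 (0.15), nearest to Adgrf1 was Apoh (0.16), nearest to Slc22a7 was Icoslg (0.25) and nearest to Mcm3 was Pals1 (0.05). Tmem14a had the most distant neighbour of the 6. The next 2 were Gng11 (0.49) and Neu1 (0.51) for Tmem14a, Pcsk6 (0.23) and E2f2 (0.26) for Gsta1, and 1700122O11Rikl (0.16) and Rbm5 (0.16) for Slc29a1. They were Etv1 (0.28) and P3h3 (0.29) for Adgrf1, Agmat (0.27) and Cd53 (0.28) for Slc22a7, and Dnmt3a (0.06) and Fasn (0.07) for Mcm3. Of these 18 genes, 1700122O11Rikl alone lies on chromosome 9.

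Array medians were 6.41 to 6.46 and the correlation between arrays of 1 pool was 0.9973 to 0.9985, against 0.9862 to 0.9960 between pools. All 7 measured kidney markers, among them Umod, Slc34a1 and Aqp2, were detected in each pool. Adrenal markers differed between pools, with 3 of 5 tested called higher in FHH.Pkhd1 than in FHH and a summed linear signal over 8 measured markers of 1294 to 1402 in FHH.Pkhd1, 322 to 361 in PCK, 727 to 757 in FHH and 324 to 339 in SD, and with Cyp11b1, Cyp17a1 and Dbh below detection. Fat markers had 4 of 6 called lower in PCK than in FHH, and 4 of 6 called higher in FHH.Pkhd1 than in PCK. In FHH.Pkhd1 minus FHH the median of the fat markers was -0.01, and Ucp1 alone was called, lower (-0.59 ± 0.06, SE). Of the liver markers, Alb averaged 10.05 in FHH.Pkhd1, 5.83 in PCK, 9.58 in FHH and 7.88 in SD, while Apoh, also on that list, averaged 6.45, 8.17, 6.92 and 7.82 in the same order. The summed linear signal of the 4 liver markers was 1231 to 1307 in FHH.Pkhd1, 390 to 436 in PCK, 947 to 1002 in FHH and 524 to 554 in SD. All 3 measured red cell markers were called lower in PCK than in SD, with a median of -1.13. The part of adrenal, fat, liver or red cell RNA in the differences of the 8 genes was not tested. The 15 probe sets for poly-A control RNAs, which are spiked in before labelling, averaged 8.58 ± 0.07 in FHH.Pkhd1, 9.22 ± 0.05 in PCK, 9.47 ± 0.03 in FHH and 8.95 ± 0.06 in SD (SD, n = 3 arrays of 1 pool). These did not overlap between pools, and their part in the differences was not tested either.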

How the data were processed

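Kidney RNA pools of 4 rat strains were measured on 12 arrays, 3 for each pool, and each array was assigned to its strain by its title. The deposited values are log2 probe set signals, for which the submitters' processing notes name RMA and Partek 6.2, and they were used as deposited by the authors. Of 31099 probe sets, 57 controls were left out, and 19359 of the rest reached the detection level of 5.75 in the mean of at least 1 pool. Symbols came from the platform annotation and gene order from the RefSeq table of GRCr8, and 20812 of 20826 probe sets with 1 symbol matched a gene there. A linear model with a mean for each strain was fitted over the 12 arrays (limma 3.58.1 with eBayes, R 4.3.3), and the Benjamini-Hochberg adjustment ran over all probe sets tested, with SE from the moderated variance. The position of FHH.Pkhd1 is its mean minus that of FHH, divided by PCK minus FHH, with an error propagated from the array spread. The 8 genes, the lists and the comparisons were chosen with earlier results of these data known. Genes named beyond the 8 are those of the window called in PCK minus FHH, the 3 of each family list with the widest PCK minus FHH difference at most, the 3 nearest patterns for each gene whose pool means span 1.5-fold, Igfbp5 as a chromosome 9 exception of 5 or fewer, and those said to be singled out. Lists are described by counts and medians without a set test. The fit was tested on simulated data. Figures were drawn with matplotlib 3.10.9.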

Additional observations from a re-analysis of the deposited data

Results flagged for a closer look

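For 3 of the genes, all PCK arrays lay on one side of all SD arrays and all FHH.Pkhd1 arrays on the opposite side of all FHH arrays. For Slc22a7, PCK minus SD was 0.78 and FHH.Pkhd1 minus FHH was -0.72, which differ by 1.51. For Adgrf1 the 2 differences were 0.23 and -0.65, which differ by 0.88, with the congenic arrays below the detection level. For Gsta1 they were -0.40 and 0.65, and the first minus the second was -1.05. These differences between the 2 comparisons were not tested, since the genes were chosen with one of them known. For Slc22a7 the other was known as well.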

How the results depend on the processing

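Precision is limited by 3 arrays of 1 pool per strain, so no result extends to the spread between animals, and signals near or under 5.75 are uncertain. Leaving out each array in turn, the position was 0.76 to 0.80 for Tmem14a, 0.51 to 0.53 for Gsta1 and -0.64 to -0.49 for Adgrf1. The call of Gsta1 in FHH.Pkhd1 minus PCK was lost without PCK replicate 3 (-0.58). Counts of called probe sets ranged over these fits from 344 to 435 in FHH.Pkhd1 minus FHH, 865 to 938 in PCK minus FHH, 1281 to 1431 in FHH.Pkhd1 minus PCK, 675 to 715 in PCK minus SD and 720 to 747 in SD minus FHH. In that order of comparisons, 368, 885, 1337, 676 and 721 were called as reported. They became 4061, 7725, 10017, 6299 and 6756 with no fold limit, 73, 303, 436, 221 and 230 with a 2-fold limit, and 137, 416, 634, 339 and 360 with 1 probe set per gene, which tests fewer features. A 60th percentile filter gave 237 in FHH.Pkhd1 minus FHH and 891 in FHH.Pkhd1 minus PCK. The share of called probe sets nearer to PCK (7.23%) became 4.57% with 1 probe set per gene, 19.1% with no fold limit and 3.96% with a 2-fold limit. In the window around Pkhd1 the number nearer to PCK was 2; it became 1 after quantile normalization, which put Gsta1 at 0.48, 11 with no fold limit, and 3 both with no filter on low values and without SD replicate 3. With the replicate number as a block, 368, 885, 1337, 676 and 721 were called, the same probe sets as without it, and no call of the 8 genes changed. The block left the differences as they were and raised the median SE 1.03-fold. By adjusted p alone it took the counts to 3743, 7321, 9671, 5907 and 6364. Same-numbered arrays of different pools did not deviate together (correlations -0.33 to 0.35, with 6 of 18 over 0.1), so the numbers were not taken to pair them. No direction of a log2 difference of the 8 genes that was called turned round under any alternative.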
